A study of Mus musculus with 48 samples.

Results

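Brown adipose tissue from mice kept at thermoneutrality was compared between 4 animals lacking angiotensinogen (Agt) in hepatocytes (hepAGT-/-, here KO) and 4 littermates with the gene intact (hepAGT+/+, here WT). The libraries were selected by the tissue and housing named in their titles, which gave 8 of the 48 libraries in the series, and all genes were compared as KO minus WT. All animals were male, ate a Western diet with 21% milk fat and 0.2% cholesterol over 12 weeks, and were housed at 30 °C. A further 8 brown fat libraries, 4 per genotype, came from mice at room temperature (20 to 22 °C) on the same diet and entered the fit for a shared estimate of the spread. The age of the mice, the Cre line behind the deletion and the alleles carried by the WT littermates are not given in the sources used here. Each library is labelled a biological replicate and is named here by genotype and replicate number (WT 1, 6, 7 and 24, KO 2, 3, 4 and 5).

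Angiotensinogen is the liver-made precursor that renin and angiotensin-converting enzyme cut into the angiotensin peptides, which act through receptors in vessels, kidney and fat. Brown fat burns lipid through uncoupling protein 1 (Ucp1) under sympathetic drive. At thermoneutrality that drive is low, brown adipocytes fill with lipid and the tissue takes on features of white fat. The comparison asks whether loss of the hepatocyte gene is accompanied by another transcript profile in brown fat when cold does not drive the tissue.

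The targeted gene was checked in liver, where it had been deleted. Agt in the thermoneutral liver libraries was at 504, 371, 454 and 309 CPM (counts per megacount after TMM scaling, edgeR's correction for library composition) in WT 1, 6, 7 and 24. It was at 164, 172, 125 and 207 CPM in KO 2, 4, 5 and 22. All 4 KO values lay below all 4 WT values (log2 change -1.29, SE 0.18, edgeR quasi-likelihood adjusted p 0.00113). No liver library carried the number of KO 3, so that label was not checked this way, and whether equal numbers mark the same animal is not stated. In brown fat Agt was at 1.51 to 2.40 CPM in WT and at 8.15, 0.0551, 0.725 and 2.27 CPM in KO 2, 3, 4 and 5 (log2 change 0.48, 95% interval -2.14 to 3.10). KO 2 was the highest and the sign turned to -0.99 without it. Hepatocyte marker transcripts were also highest in KO 2.

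Brown adipocyte markers were found in all 8 libraries, which held 27.3 to 33.3 megacounts. All 10 brown adipocyte markers had counts in each library. So did all 20 hepatocyte and all 8 endothelial markers, so presence alone does not identify the tissue. The brown adipocyte sum ran from 5737 to 9705 CPM in WT and from 5303 to 8351 CPM in KO. This sum and all other marker sums in this report are in plain CPM, without TMM scaling. Transcripts of other tissues varied widely between libraries, with overlapping ranges in the genotypes. The sum of 23 skeletal muscle markers (plain CPM) was 83.9, 9809, 101 and 9112 in WT 1, 6, 7 and 24, and 13410, 117, 96.9 and 1692 in KO 2, 3, 4 and 5. Of those 23 markers, 12 had counts in every library. The sum of 20 hepatocyte markers, all with counts in every library, was 173 to 1437 CPM in WT and 51.9 to 3958 CPM in KO. The 5 erythroid markers summed to 940 CPM in WT 1 and 845 CPM in KO 2, against 43.5 to 301 CPM in the other libraries. Mitochondrially encoded transcripts took 17.2% to 32.0% of counts in WT and 22.2% to 28.1% in KO. KO 3 and KO 5 stood apart in the abundant identifier ENSMUSG00000119584, which has no symbol in the reference table: it was at 738 and 649 CPM there and at 20263 to 45886 CPM in the other 6 libraries. Malat1, a nuclear long non-coding RNA, was at 655 and 652 CPM in KO 3 and KO 5 and at 1462 to 4196 CPM elsewhere. Counts of these libraries cannot tell fewer cells of a type from less RNA per cell.

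**Figure D1:**
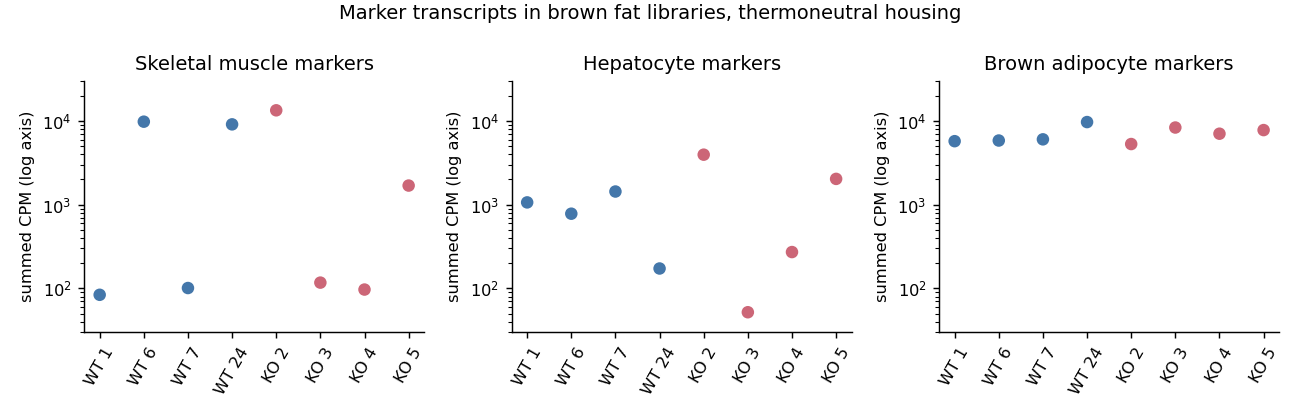
Summed plain CPM of skeletal muscle, hepatocyte and brown adipocyte markers (log axes) in each of the 8 thermoneutral brown fat libraries. WT is in blue and KO in red. Muscle markers reach 13410 CPM in KO 2 and stay near 100 CPM or below in WT 1 and KO 4, whereas brown adipocyte markers keep to 5303 to 9705 CPM.

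Muscle genes also led the variation within the genotypes. The 10 genes with the largest spread within groups, among those at 10 CPM or more on average, were all sarcomere or muscle metabolism genes: Myh4, Acta1, Ckm, Ttn, Atp2a1, Tnnt3, Pvalb, Tnni2, Tnnc2 and Myh1. Myh4, the myosin heavy chain of fast glycolytic fibres, was at 3.14, 1193, 1.29 and 1201 CPM in WT 1, 6, 7 and 24. It was at 1758 and 220 CPM in KO 2 and 5, and had no count in KO 3 and 4. The first principal component, with 32.4% of the variance, placed the 4 libraries richest in muscle transcripts above 0 and in the order of their muscle sums, at 93.5 for KO 2, 48.9 for WT 6, 46.9 for WT 24 and 14.4 for KO 5. The other 4 lay from -25.7 for WT 7 down to -85.8 for KO 3. Both genotypes lay at both ends of it. Its highest loadings were those of Myh4, Ckm, Ttn, Pvalb and Acta1, and its lowest those of Nell1, Arhgap40, Gbgt1, Gm18300 and Ccdc151. The blood protein genes Alb and Apoa1 had overlapping groups, with Alb at 48.1 to 438 CPM in WT and 11.3 to 1450 CPM in KO.

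No gene passed the test between genotypes. The threshold for a call was 0.05 on the p of edgeR's quasi-likelihood test, after Benjamini-Hochberg adjustment across 18032 genes. This held for 0 genes (0%), with a lowest adjusted p of 0.403. At an unadjusted p under 0.05 there were 945 genes (5.24%), 518 higher (2.87%) and 427 lower in KO (2.37%), where 902 would be expected if no gene differed. The 4 KO libraries lay wholly above or below the 4 WT libraries in 611 genes (3.39%), 293 above (1.62%) and 318 below (1.76%). DESeq2 called 20 genes (0.111%), 15 higher (0.0832%) and 5 lower in KO (0.0277%). It gave no adjusted p for 1757 genes, which stay in the base of these shares. Limma voom with sample quality weights called 91 (0.505%), of which 13 were among the 20. Those 13 are 65.0% of the DESeq2 list and 14.3% of the voom list. The 95% interval of the log2 change reached a median of 0.60 to either side of the estimate, and it lay within 2-fold in either direction for 55.6% of the genes. With the muscle and hepatocyte sums as covariates, or without the 4 libraries richest in muscle transcripts, edgeR called 0 genes as well (1112 and 987 at an unadjusted p under 0.05). All verbs of difference below therefore describe the libraries and not calls by edgeR, unless another tool is named.

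Scd1 was the only one of 17 genes of de novo lipogenesis in which the genotypes did not overlap (against 3.39% of all genes tested). It encodes stearoyl-CoA desaturase 1, the enzyme that makes monounsaturated from saturated fatty acids (GRCm38 chromosome 19, 44394455 to 44407879, minus strand). Scd1 was at 30916, 32297, 32107 and 31892 CPM in WT 1, 6, 7 and 24, and at 16183, 20540, 13525 and 14170 CPM in KO 2, 3, 4 and 5. The WT libraries lay close together and every KO library was below them (31803 ± 614 CPM in WT, 16105 ± 3166 CPM in KO, SD, n = 4). The log2 change was -0.98 (SE 0.21, 95% interval -1.43 to -0.54), with an edgeR adjusted p of 0.493 and a DESeq2 adjusted p of 0.000581. Over the alternatives the adjusted p of Scd1 ran from 0.000581 to 1, and leaving out single libraries gave log2 changes from -1.11 to -0.89.

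The other 16 genes of the pathway overlapped. Of all 17, 11 had a positive and 6 a negative change, and 2 had an unadjusted p under 0.05 (against 5.24% of all genes tested). The median was 0.14 against -0.002 over all genes tested. That median turned with single libraries, to -0.18 without KO 3 (8 positive, 9 negative) and -0.03 without WT 6, and reached 0.28 without KO 4. Srebf1, the sterol-responsive transcription factor that drives this pathway, was at 160 to 224 CPM in WT and 223 to 404 CPM in KO (log2 change 0.49, 95% interval 0.09 to 0.90, 0.27 without KO 3). Fasn, the fatty acid synthase, was at 945, 569, 656 and 2930 CPM in WT 1, 6, 7 and 24, and at 993, 3173, 584 and 854 CPM in KO 2, 3, 4 and 5. WT 24 and KO 3 were thus the high libraries, one in each genotype. Acly, which supplies acetyl-CoA, had the same 2 high libraries at 831 and 894 CPM, against 182 to 248 CPM in the other 6. Acaca, the first committed enzyme, was at 687 and 789 CPM in them and at 246 to 410 CPM elsewhere. The Fasn log2 change was 0.14 (95% interval -1.05 to 1.32) and became 0.95 without WT 24 and -0.66 without KO 3. Elovl6, which elongates palmitate, had overlapping groups (102 ± 27.2 CPM in WT, 96.3 ± 31.6 CPM in KO, SD, n = 4).

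Among genes of white fat and adipokines, 3 of 12 tested members had an unadjusted p under 0.05, and all 3 were lower in KO without overlap between the groups (5.24% and 3.39% of all genes tested met these criteria in either direction). The 12 split into 6 positive and 6 negative changes with a median of -0.17. It was -0.61 without KO 2, -0.03 without KO 3 and -0.91 without the 4 muscle-rich libraries. Without KO 3 and WT 24 it turned to 0.18 (7 positive, 5 negative). Lep encodes leptin, the adipocyte hormone that reports fat stores (GRCm38 chromosome 6, 29060220 to 29073877, plus strand). Lep was at 219, 255, 355 and 216 CPM in WT 1, 6, 7 and 24, and at 140, 202, 108 and 61.4 CPM in KO 2, 3, 4 and 5. The gap between the groups was narrow, from 202 CPM in KO 3 to 216 CPM in WT 24 (log2 change -1.03, SE 0.35, edgeR adjusted p 0.778, range over the alternatives 0.0824 to 1). Npr3, the natriuretic peptide clearance receptor of fat cells (GRCm38 chromosome 15, 11839896 to 11907287, minus strand), was at 267, 388, 493 and 363 CPM in WT and at 131, 228, 207 and 116 CPM in KO. Its log2 change was -1.15 (SE 0.28, edgeR adjusted p 0.598, DESeq2 adjusted p 0.0317). Mest, an imprinted gene tied to fat cell enlargement, was at 31.8 to 70.1 CPM in WT and at 28.5, 6.70, 10.5 and 7.32 CPM in KO, so that KO 2 lay near the WT libraries (log2 change -1.78, SE 0.61). Limma voom with quality weights called Mest (adjusted p 0.0226) and not Lep or Npr3.

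The other adipokines overlapped. Adipoq (adiponectin) averaged 844 ± 138 CPM in WT against 916 ± 196 CPM in KO (SD, n = 4), and Retn (resistin) at 58.6 ± 35.1 and 68.8 ± 59.3 CPM. Cfd (adipsin) had the largest positive change of its list. Cfd was at 353 to 668 CPM in WT and at 1238, 705, 590 and 1647 CPM in KO, with KO 4 inside the WT range (log2 change 1.09, 95% interval -0.12 to 2.30). KO 2 and KO 5, the 2 highest for Cfd, were also the 2 libraries with the most hepatocyte transcripts, at 3958 and 2034 CPM. In all alternative fits, among them those with the hepatocyte sum as a covariate, the change of Cfd stayed positive and was not called. The cause of the Cfd values was not tested.

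**Figure D2:**
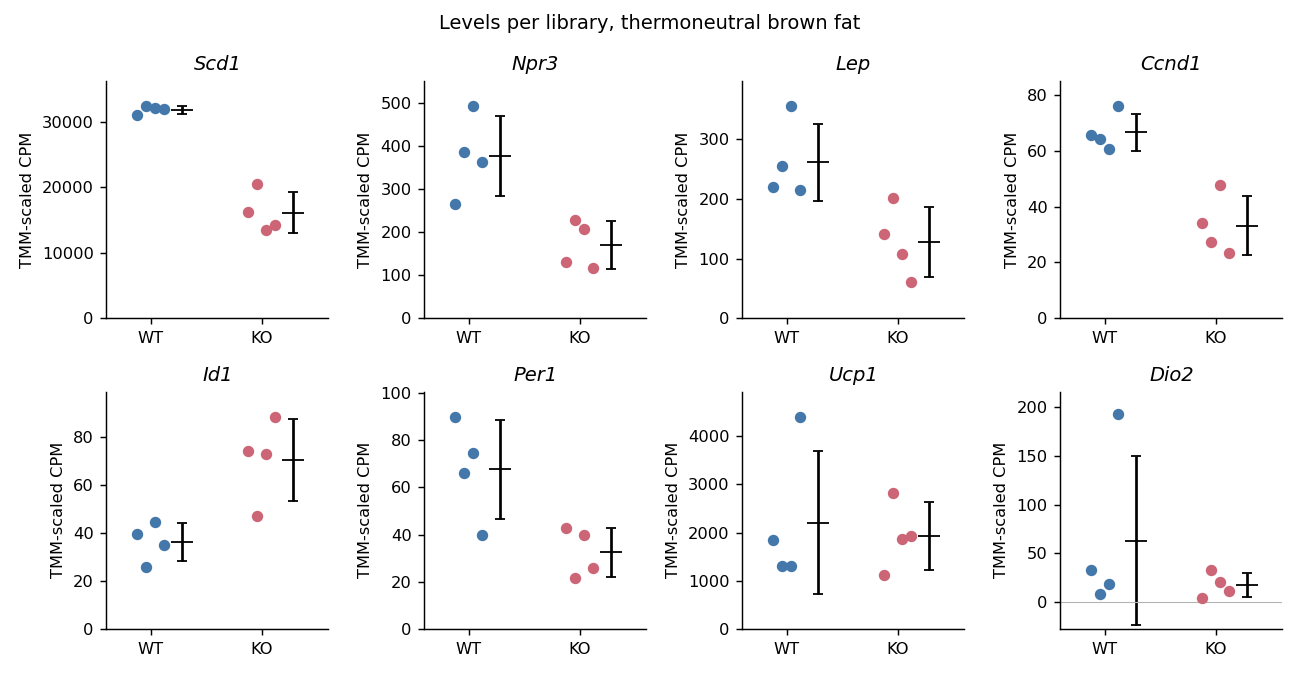
TMM-scaled CPM of 8 genes in the 4 WT (blue) and 4 KO (red) thermoneutral brown fat libraries, with the mean and SD beside the points. The groups do not overlap for Scd1, Npr3, Lep, Ccnd1 and Id1, whereas Per1, Ucp1 and Dio2 overlap, with WT 24 at 4397 CPM for Ucp1 and 193 CPM for Dio2.

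Of the genes called by DESeq2, Ccnd1, Zeb2, Id1, Id2, Pim1 and Itpka are described first, with no overlap between the groups in any of them. Ccnd1 encodes cyclin D1, which promotes entry into the cell cycle (GRCm38 chromosome 7, 144929931 to 144939925, minus strand). Ccnd1 was at 65.6, 64.1, 60.8 and 75.9 CPM in WT and at 34.0, 27.4, 47.7 and 23.4 CPM in KO (log2 change -1.01, SE 0.20, edgeR adjusted p 0.417, DESeq2 adjusted p 0.0143). The lowest Ccnd1 values were those of KO 5 and KO 3, which were also the 2 libraries low in ENSMUSG00000119584, and without both the change was -0.71. Zeb2, a zinc finger repressor, was at 76.8 to 110 CPM in WT and 48.4 to 74.2 CPM in KO (log2 change -0.64, DESeq2 adjusted p 0.0339).

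Id1 and Id2 encode helix-loop-helix proteins without a DNA-binding region, which block transcription factors of that family and respond to BMP signals. Id1 (GRCm38 chromosome 2, 152736251 to 152737410, plus strand) was at 25.8 to 44.6 CPM in WT and at 74.1, 47.2, 72.8 and 88.3 CPM in KO 2, 3, 4 and 5. KO 3 was only just above the highest WT library (log2 change 0.96, SE 0.21, edgeR adjusted p 0.493, DESeq2 adjusted p 0.0282). Id2 was at 5.97 to 12.9 CPM in WT and 20.1 to 36.4 CPM in KO (log2 change 1.34, DESeq2 adjusted p 0.0145). Pim1, a kinase gene induced by cytokines, was at 16.6 to 29.4 CPM in WT and 33.8 to 63.7 CPM in KO (log2 change 0.92, DESeq2 adjusted p 0.0282). Itpka, which phosphorylates inositol trisphosphate, was at 3.24 to 4.92 CPM in WT and 5.56 to 11.3 CPM in KO (log2 change 1.06, DESeq2 adjusted p 0.0317).

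Among genes with no overlap, at least 1 CPM on average and an unadjusted p under 0.05, the 10 largest positive log2 changes were those of Fam222a (2.05), Slco4a1 (1.95), Rhof (1.74), Rab17 (1.72), P4htm (1.52), Dusp5 (1.51), Amigo3 (1.5), Car14 (1.36), Id2 (1.34) and Arhgef19 (1.31). Slco4a1, an organic anion transporter of the thyroid hormone and steroid carrying family, was at 1.14, 0.270, 1.03 and 0.930 CPM in WT and at 2.46, 5.46, 2.96 and 2.15 CPM in KO (DESeq2 adjusted p 0.000581). KO 3 was the highest, as it was for Fam222a (12.4 CPM), whose change was 1.26 without it. DESeq2 also called Igsf21 (log2 change 1.03), the predicted transcript Gm10644 (1.46) and the unnamed identifier ENSMUSG00000120023 (1.89), each with KO above WT. It further called 2010109A12Rik, which had no count in the 4 WT libraries and in KO 5 and 0.223 to 0.441 CPM in the other 3. The 10 largest negative changes were those of Ncan (-1.97), Mest (-1.78), Crnde (-1.56), Lbp (-1.53), Fmod (-1.39), Twist2 (-1.29), Lgals3 (-1.28), Mmp12 (-1.27), Msr1 (-1.26) and Zfyve28 (-1.25). Ncan, a proteoglycan, was at 1.78, 1.94, 1.71 and 4.86 CPM in WT and at 0.974, 0.386, 0.558 and 0.697 CPM in KO (DESeq2 adjusted p 0.00542). Lbp, which carries lipopolysaccharide, was at 11.6 to 17.5 CPM in WT and at 10.1, 2.23, 3.63 and 2.93 CPM in KO.

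Of 23 macrophage and inflammation genes tested, 19 had a negative and 4 a positive change, with a median of -0.66 on the log2 scale against -0.002 over all genes. edgeR called none of them. At an unadjusted p under 0.05 there were 7, all lower in KO, and in 4 members the groups did not overlap. Over all genes tested these shares were 5.24% and 3.39%. Cd68, a lysosomal protein of phagocytes, was at 8.06, 17.1, 14.2 and 10.4 CPM in WT 1, 6, 7 and 24, and at 5.25, 4.63, 6.47 and 7.29 CPM in KO 2, 3, 4 and 5 (log2 change -1.07, SE 0.28). Csf1r, the receptor on which macrophages depend for survival, was at 29.8, 38.3, 34.6 and 32.1 CPM in WT and at 19.7, 22.0, 18.2 and 24.2 CPM in KO (log2 change -0.68, SE 0.21). Every KO library was below every WT library for both genes, and limma voom with quality weights called both (adjusted p 0.0354 for each) as well as Mmp12, while DESeq2 called no member of the list.

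Trem2, a lipid receptor of fat-associated macrophages, was at 1.36, 5.10, 3.59 and 2.76 CPM in WT and at 1.54, 1.10, 0.837 and 0.930 CPM in KO. WT 1 lay inside the KO range (log2 change -1.54, SE 0.46, edgeR adjusted p 0.633). The pan-macrophage gene Adgre1 (F4/80) overlapped, at 10.3 to 19.6 CPM in WT and 6.42 to 12.1 CPM in KO (log2 change -0.70). Lyz2 (-0.70), Cd163 (-1.16) and Gpnmb (-1.07) also overlapped. Il1b, the gene of the cytokine interleukin 1 beta, went the other way without overlap, at 0.782 to 1.83 CPM in WT and 2.10 to 6.25 CPM in KO (log2 change 1.33, 95% interval -0.23 to 2.88). WT 6 held the highest value of 13 of the 23 members, and KO 3 and KO 4 the lowest of 9 each. WT 6 was among the muscle-rich libraries and KO 3 and 4 among those poor in muscle. Without the 4 muscle-rich libraries the median of the list was -0.68, with the same 19 negative and 4 positive counts. That median was -0.47 without WT 6 (17 negative, 6 positive) or without KO 4, -0.51 without KO 3 and -0.83 without KO 5.

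Of 20 matrix genes, 17 had a negative change and the median was -0.27. At an unadjusted p under 0.05 there were 3 (against 5.24% of all genes tested), and edgeR called none. The median was -0.43 without KO 2, -0.17 without KO 3 or without WT 6, and -0.53 with 20 of 20 negative without the 4 muscle-rich libraries. Lox, which cross-links collagen, was at 43.3 to 53.1 CPM in WT and at 25.0, 44.6, 21.0 and 16.9 CPM in KO, with KO 3 inside the WT range (log2 change -0.84, SE 0.24, adjusted p 0.0354 with limma voom and quality weights, which called it). Col5a1 was at 46.9 to 58.4 CPM in WT and 32.1 to 46.0 CPM in KO (log2 change -0.43) and Sparc, a collagen-binding protein, had a change of -0.40. Col1a1 (114 ± 29.8 CPM in WT, 90.2 ± 27.6 CPM in KO, SD, n = 4) and Tnc (22.6 ± 7.15 and 19.0 ± 8.62 CPM) overlapped. Fibroblast markers, 6 genes, summed to 616 to 961 CPM in WT and 467 to 859 CPM in KO.

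**Figure D3:**
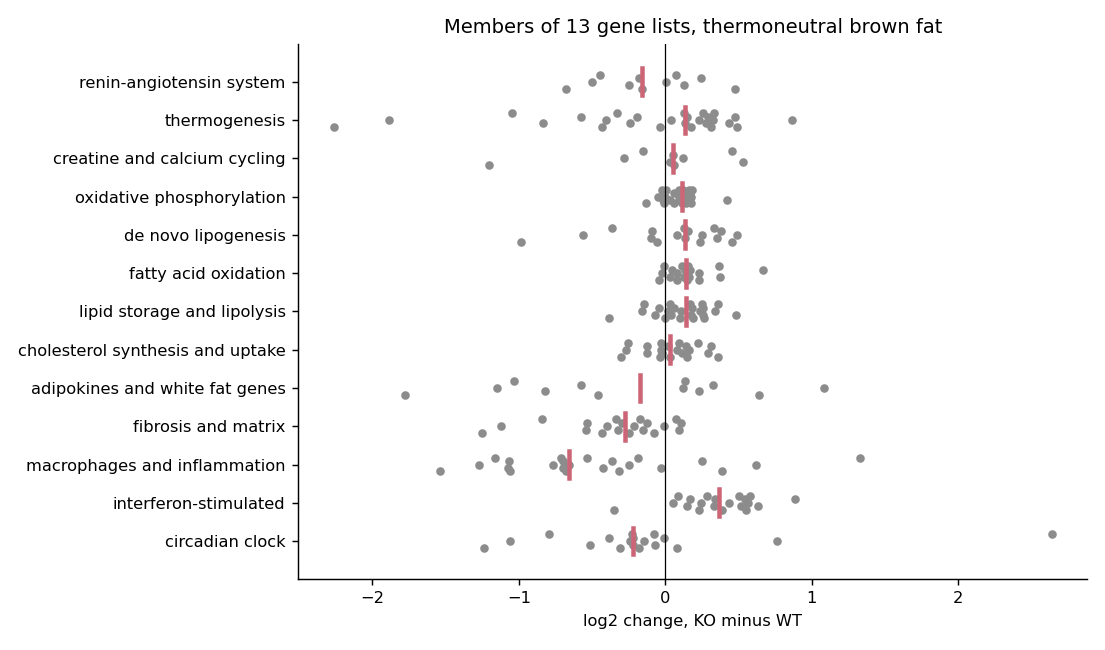
Log2 change (KO minus WT) of every tested member of 13 gene lists in thermoneutral brown fat, with 1 grey point per gene and the list's median as a red bar. The median is -0.66 for macrophages and inflammation and 0.37 for interferon-stimulated genes, with all 8 libraries in the fit.

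Ucp1 and most other genes of heat production overlapped between the genotypes. Of 27 thermogenesis genes tested, 16 had a positive and 11 a negative change, with a median of 0.14. At an unadjusted p under 0.05 there were 5, 1 was without overlap and edgeR called none. Over all genes tested 5.24% had such a p and 3.39% did not overlap. The median was 0.29 without WT 24 (21 positive, 6 negative) and 0.05 without WT 6. Ucp1 was at 1842, 1298, 1296 and 4397 CPM in WT 1, 6, 7 and 24, and at 1110, 2820, 1865 and 1923 CPM in KO 2, 3, 4 and 5. WT 24 was the highest and KO 2 the lowest of all 8 libraries. The log2 change of Ucp1 was -0.19 (95% interval -0.99 to 0.60) and turned to 0.38 without WT 24. Dio2, which activates thyroid hormone within the tissue, was at 193 CPM in WT 24 and at 4.02 to 32.8 CPM in the other 7 libraries, so that its change of -1.89 was -0.21 without WT 24. Cidea (1031 ± 201 CPM in WT, 1234 ± 304 CPM in KO, SD, n = 4), Prdm16 (21.5 ± 6.84 and 26.8 ± 5.52 CPM), Ppargc1a (40.3 ± 22.8 and 29.9 ± 12.5 CPM), Adrb3 (131 ± 18.6 and 154 ± 18.4 CPM) and Elovl3 (1.81 ± 1.82 and 1.00 ± 0.886 CPM) all overlapped.

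The members at an unadjusted p under 0.05 pointed in both directions. Irf4 (log2 change 0.86), Esrra (0.44) and the potassium channel gene Kcnk3 (0.48) had positive changes, and the orphan receptor gene Esrrg (-0.58) a negative one. Esrra, which drives mitochondrial genes, was called by limma voom with quality weights (adjusted p 0.0481). The fifth, the hormone gene Fgf21, was at 1.20 CPM in WT 24 and at 0 to 0.214 CPM in the other 7 libraries. Nrg4, which encodes a secreted growth factor of brown fat, was the member without overlap (168 ± 6.51 CPM in WT, 134 ± 23.3 CPM in KO, SD, n = 4), at an unadjusted p of 0.129 in edgeR. Of 9 genes of creatine and calcium cycling tested, 6 had a positive and 3 a negative change, with a median of 0.05 (-0.10 without KO 2). At an unadjusted p under 0.05 there were 2, 1 higher and 1 lower in KO, and edgeR called none. All 9 overlapped between the groups. Ckb had the largest positive change (0.53). Ryr2 had the largest negative change (-1.20), at 0.720 to 3.10 CPM in WT and 0.407 to 1.44 CPM in KO.

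Genes of mitochondrial respiration and lipid breakdown had medians slightly above 0 with all 8 libraries in the fit. All 29 genes of oxidative phosphorylation had an interval within 2-fold in either direction, 22 with a positive and 7 with a negative change (median 0.11). Ndufs7 (0.42) alone had an unadjusted p under 0.05 (against 5.24% of all genes tested). Of 20 genes of fatty acid oxidation, 17 had a positive change (median 0.14). Etfb, the electron transfer flavoprotein subunit, was at 60.8 to 108 CPM in WT and 118 to 149 CPM in KO, without overlap (log2 change 0.66, edgeR adjusted p 0.850), and Eci1 had a change of 0.37. Among 24 genes of lipid storage and lipolysis the median was 0.14, and Pnpla2, the first lipase of triglyceride breakdown, had a change of 0.36. Plin1, Lipe, Cidec, Lpl, Cd36 and Fabp4 overlapped between the groups, as did Cpt1b. These medians moved both ways with the libraries. Without KO 3 and KO 5 they were -0.03 for oxidative phosphorylation, -0.08 for fatty acid oxidation and -0.12 for lipid storage. Without WT 24 they were 0.25 (29 of 29 positive), 0.33 and 0.29, and without the 4 muscle-rich libraries 0.32 (29 of 29 positive), 0.41 and 0.14. Of single libraries, the lowest medians came without WT 6 for respiration and oxidation (0.03 and 0.06) and without KO 5 for lipid storage (0.05). KO 2, the library with the most muscle and hepatocyte transcripts, was the lowest of all 8 in 12 of the 29 respiration genes and in 15 of the 20 oxidation genes, and WT 24 was the highest in 24 of the 29.

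Interferon-stimulated genes were positive in 19 of 20 members (median 0.37), with 2 at an unadjusted p under 0.05, none called by edgeR and none without overlap. Over all genes tested 5.24% had such a p and 3.39% did not overlap. Igtp, an interferon-induced GTPase, was at 26.4, 17.8, 20.3 and 8.73 CPM in WT 1, 6, 7 and 24, and at 19.6, 23.3, 40.4 and 51.7 CPM in KO 2, 3, 4 and 5 (log2 change 0.88). KO 4 and KO 5 were above all WT libraries, and KO 2 and KO 3 lay inside the WT range. WT 24 was the lowest library in 19 of the 20 genes. Without WT 24 the median was 0.19, with 13 positive and 7 negative members, and without the 4 muscle-rich libraries it was -0.04. Endothelial markers, 8 genes, were also lowest in WT 24, at a sum of 399 CPM against 917 to 1603 CPM in the other libraries, and their part in the interferon values was not tested.

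Of 15 genes of the renin-angiotensin system, 11 were tested, and Agtr1b, Agtr2, Mas1 and Ren1 had too few counts. None had an unadjusted p under 0.05 and none was free of overlap (5 positive, 6 negative, median -0.16, and -0.07 without KO 3, KO 4 or WT 24). Agtr1a, the main angiotensin II receptor, was at 2.28 to 9.69 CPM in WT and 5.49 to 13.5 CPM in KO, and Ace, the converting enzyme, at 19.1 to 27.2 and 15.9 to 31.5 CPM. Cholesterol synthesis and uptake had 21 members tested, none at an unadjusted p under 0.05, and a median of 0.03 (-0.09 without WT 6, 0.19 without WT 24).

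Clock genes differed between single libraries of both genotypes. The circadian clock runs on the activators Clock and Arntl (Bmal1), which bind E-box sequences in the promoters of Per, Cry and Dbp, whose products feed back on them, so that the levels of Arntl and Dbp peak at opposite times of day. Arntl was at 0.785, 1.73, 1.29 and 9.90 CPM in WT 1, 6, 7 and 24, and at 6.71, 13.2, 2.12 and 1.22 CPM in KO 2, 3, 4 and 5. Dbp was at 76.4, 88.4, 63.2 and 25.4 CPM in WT and at 63.4, 15.8, 74.1 and 70.5 CPM in KO. WT 24 and KO 3 were thus the 2 libraries high in Arntl and low in Dbp, with KO 2 also high in Arntl. Nfil3, a repressor that follows Arntl, was at 19.4 and 16.8 CPM in WT 24 and KO 3 and at 3.63 to 8.15 CPM in the other 6. The same 2 libraries were the high ones for Fasn, Acly and Acaca. The time of day of collection is not given in the sources used here.

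Per1, a light- and hormone-responsive repressor of the clock (GRCm38 chromosome 11, 69095217 to 69109960, plus strand), was the one clock gene of 18 with an unadjusted p under 0.05 (against 5.24% of all genes tested). Per1 was at 89.8, 66.2, 74.6 and 40.0 CPM in WT 1, 6, 7 and 24, and at 42.6, 21.7, 39.8 and 25.6 CPM in KO 2, 3, 4 and 5. WT 24 lay between KO 2 and KO 4, and the other 3 WT libraries were above all KO libraries (log2 change -1.06, SE 0.29, edgeR adjusted p 0.633, range over the alternatives 0.0536 to 1). Without KO 3 and WT 24 the change was -1.08, and without KO 3 and KO 5 it was -0.72. Per2 was at 20.6 to 48.6 CPM in WT and 4.14 to 23.3 CPM in KO (log2 change -1.24, 95% interval -2.64 to 0.16). Of the 18 members 15 had a negative change, with a median of -0.22, and edgeR called none.

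The promoters of Per1, of Ciart (a repressor of Clock and Arntl) and of Arntl show where the E-box CACGTG stands in genes of opposite phase. Each run gives the 250 bases before the RefSeq start site on GRCm38.p6, 5′ to 3′ on the gene's strand, with CACGTG in capitals. This motif is its own reverse complement, so that both strands are covered by 1 search. The table has a pair of entries each for Per1 and Arntl. The Per1 entry with the motif and the first Arntl entry are shown.
Per1, chr11:69098699-69098948, plus strand: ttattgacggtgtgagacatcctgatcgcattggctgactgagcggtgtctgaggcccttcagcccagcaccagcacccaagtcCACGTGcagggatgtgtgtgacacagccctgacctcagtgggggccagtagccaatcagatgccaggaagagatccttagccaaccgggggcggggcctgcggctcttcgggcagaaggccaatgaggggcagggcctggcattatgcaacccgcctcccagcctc
Ciart, chr3:95882229-95882478, minus strand: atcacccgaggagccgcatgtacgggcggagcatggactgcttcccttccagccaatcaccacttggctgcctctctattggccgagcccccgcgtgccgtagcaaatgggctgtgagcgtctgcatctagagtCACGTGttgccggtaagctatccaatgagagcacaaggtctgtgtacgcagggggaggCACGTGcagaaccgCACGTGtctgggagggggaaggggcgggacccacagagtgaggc
Arntl, chr7:113207215-113207464, plus strand: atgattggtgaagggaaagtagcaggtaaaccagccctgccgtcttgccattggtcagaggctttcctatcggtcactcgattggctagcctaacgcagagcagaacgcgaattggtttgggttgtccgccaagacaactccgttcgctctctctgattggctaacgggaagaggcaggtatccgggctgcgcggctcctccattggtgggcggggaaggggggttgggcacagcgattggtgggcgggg
The motif occurs in 1 place in the Per1 window and in 3 places in the Ciart window, and these letters are not in the Arntl window. Of the 18 clock genes 15 matched the promoter table, and 5 of them (Bhlhe41, Ciart, Cry1, Per1 and Tef) held CACGTG in at least 1 entry. Of all 32851 promoter windows of the same length, counted singly, 6.02% held it. A gene with several entries has more chances of a match, so the count of genes and the share of windows are in unlike units. A match is a description of the letters and not a measured binding site.

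**Figure D4:**
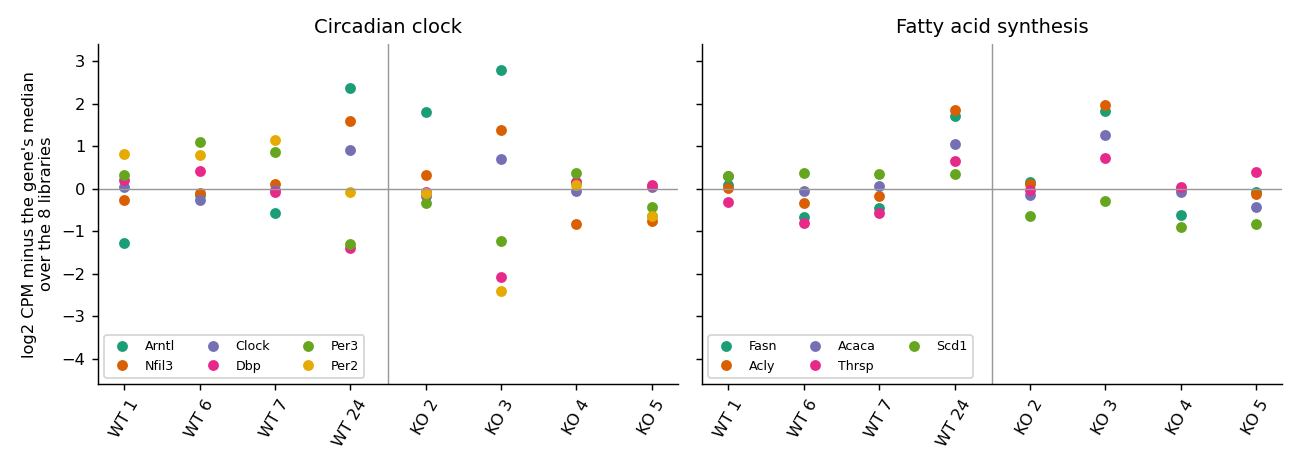
Log2 CPM of clock genes (left) and fatty acid synthesis genes (right) in each library, as the difference from the gene's median over the 8 libraries, with WT left and KO right of the grey line. WT 24 and KO 3 stand high for Arntl, Nfil3 and Clock, low for Dbp and Per3, and high for Fasn, Acly and Acaca, whereas Scd1 is lower in the 4 KO libraries than in the 4 WT libraries.

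The genotype effect at thermoneutrality was set beside that at room temperature, where edgeR called 16 genes (0.0887%). DESeq2 called 981 genes at room temperature (5.44%), 628 higher and 353 lower in KO, among them all 16. It gave no adjusted p there for 4899 of the 18032 genes, which stay in the base of this share. Of the 16 called by edgeR, 12 had the same sign at thermoneutrality, 4 had an unadjusted p under 0.05 there and 2, Lep and Hfe, did not overlap. Over all genes tested at thermoneutrality 5.24% had such a p and 3.39% did not overlap. Lep had a log2 change of -2.19 at room temperature and -1.03 at thermoneutrality. Hfe, a regulator of iron uptake, was at 27.8 to 30.8 CPM in WT and 16.2 to 26.9 CPM in KO at thermoneutrality (log2 change -0.41, and -0.91 at room temperature). Alpl, an alkaline phosphatase of the creatine cycle, had changes of 0.46 and 1.08, and Sucnr1, the succinate receptor, of -0.46 and -1.22. The changes of Ankrd33b, Herc6, Smad7, Hcn2, Hspa12a, Rgs4, ENSMUSG00000120926, Rpl17-ps10, Tmtc1 and Tmem45b at thermoneutrality lay between -0.33 and 0.28, with overlapping groups. Filip1l had a change of -0.40 at thermoneutrality and 1.22 at room temperature. Rpl17-ps10 is a pseudogene whose reads may be shared with its parent gene.

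The difference between the temperatures was tested as an interaction, for which edgeR called 0 of 18032 genes (0%, 1832 at an unadjusted p under 0.05, lowest adjusted p 0.383) and DESeq2 21. For the 16 genes called at room temperature the interaction adjusted p lay between 0.383 and 0.479. For Lep the interaction was 1.16 (adjusted p 0.475), for Scd1 -0.51 (adjusted p 0.542), for Npr3 -0.21 (adjusted p 0.876) and for Per1 -1.09 (adjusted p 0.470). Scd1 had a log2 change of -0.47 at room temperature and Npr3 of -0.94, neither called there by edgeR (adjusted p 0.233 and 0.118). DESeq2 called Npr3 at room temperature (adjusted p 0.0190) and not Scd1 (adjusted p 0.0817). The groups of Npr3 did not overlap there, which held for 9.26% of all genes tested at room temperature. The macrophage list had a median of -0.68 at room temperature and -0.66 at thermoneutrality, while oxidative phosphorylation had -0.38 and 0.11.

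**Figure D5:**
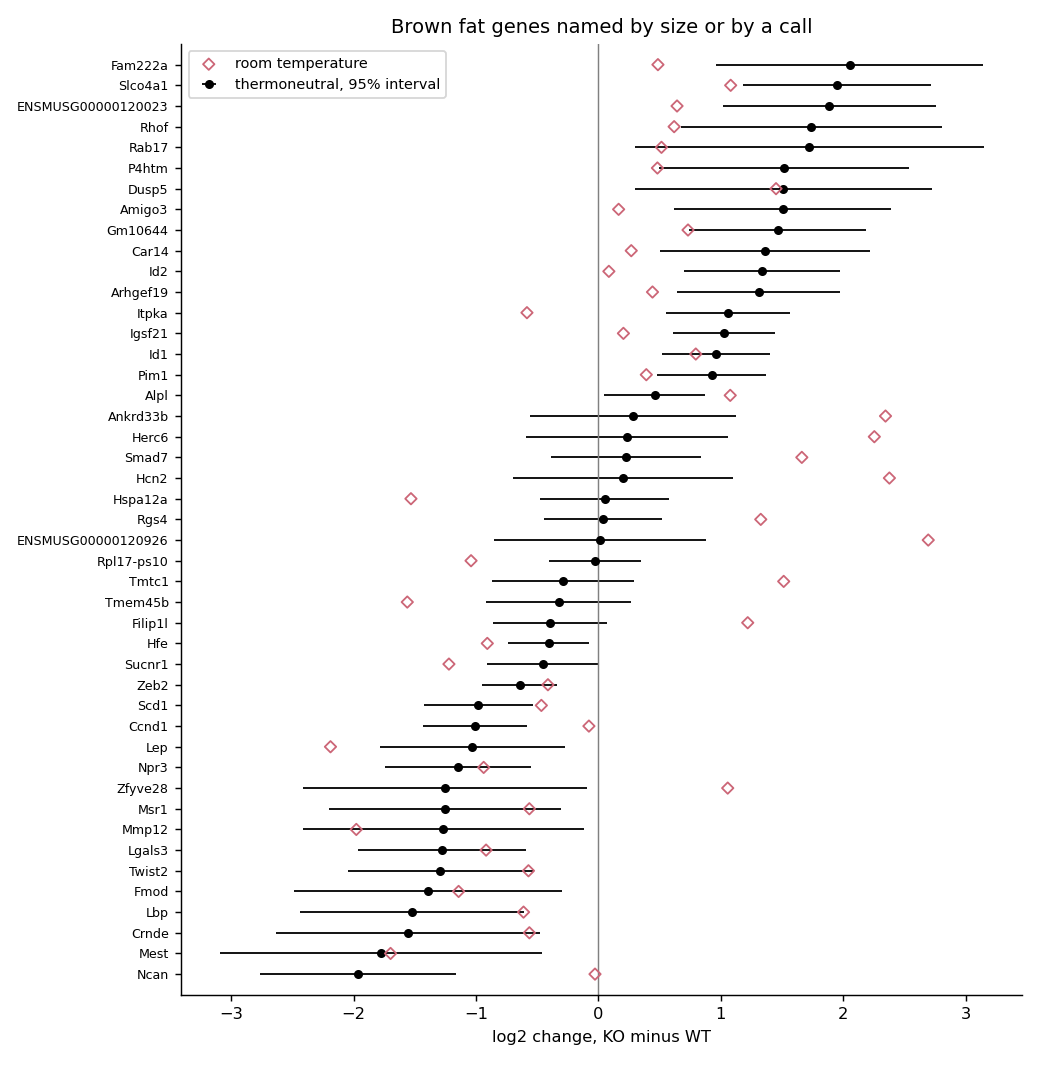
Log2 change (KO minus WT) of 45 brown fat genes at thermoneutrality, black with its 95% interval, and at room temperature, open red diamonds. Genes were named by size or by a DESeq2 call at thermoneutrality or by an edgeR call at room temperature, and Lep is below 0 at both (-1.03 and -2.19) while Ccnd1 is at -1.01 and -0.08.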

How the data were processed

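Per the labels, tissue RNA from a Maxwell RSC simplyRNA kit went into NEBNext Ultra libraries, read paired-end on a NovaSeq instrument. The deposited values are raw counts per gene and library. The submitters' processing notes name fastp, STAR 2.6.1d, featureCounts 1.5.0-p3 and GRCm38/mm10, while annotation release and strand setting are not given in the sources used here. Of 56748 identifiers 52073 had a symbol. The 16 brown fat libraries were fitted in R 4.3.3 with edgeR 4.0.16 (filterByExpr with a minimum count of 10, TMM scaling, 1 mean per group, robust quasi-likelihood F tests, two-sided, Benjamini-Hochberg over 18032 genes). DESeq2 1.42.0 and limma 3.58.1 were alternatives. The procedure was tested on simulated data, and no library duplicated another.

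The genes and lists were chosen with earlier results of these data known. Genes were named if fixed by hand, among the 10 largest non-overlapping per direction, called by DESeq2, called at room temperature, most variable, of extreme loading, or of extreme change in a list. List members with an unadjusted p under 0.05, library measures and a few neighbours were added after their values were seen. P-values measure the spread between these libraries. Gene positions come from GENCODE M21 and promoters from RefSeq. Not every gene that the rule selects is reported here.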

Additional observations from a re-analysis of the deposited data

Results flagged for a closer look

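Within a group of 4 libraries, a value was marked when its gap to the nearest other library divided by the group's range exceeded Dixon's 95% limit for 4 values. Of 150 groups examined 17 were marked. The limit marks about 1 in 20 for independent, normally distributed values. The values here were not log-transformed, came from the same 8 libraries and included genes chosen from these data, so that rate need not hold.

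WT 24 accounted for 6 of them. It was high in the brown adipocyte marker sum (9705 CPM, the other WT libraries at 5737 to 6034), Dio2 (193 CPM against 8.04 to 32.8), Fasn (2930 CPM against 569 to 945), Ncan (4.86 CPM against 1.71 to 1.94) and Ndufs7 (269 CPM against 187 to 193), and low in Pim1 (16.6 CPM against 27.3 to 29.4). WT 1 was high in the share of mitochondrially encoded transcripts (32.0% against 17.2% to 19.1%) and in the share of the 10 most abundant genes (39.2% against 26.8% to 28%). WT 6 was high in Mmp12 (15.5 CPM against 6.67 to 8.04) and P4htm (2.08 CPM against 0.660 to 0.749).

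In KO, KO 2 was high in skeletal muscle markers (13410 CPM against 96.9 to 1692), erythroid markers (845 CPM against 43.5 to 91.7) and Crnde (1.23 CPM against 0.279 to 0.386). KO 3 was high in Fasn (3173 CPM against 584 to 993), Car14 (16.5 CPM against 6.68 to 8.15) and Igsf21 (8.71 CPM against 5.69 to 5.94). KO 5 was low in Rab17 (2.03 CPM against 2.72 to 2.76).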

How the results depend on the processing

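No paired analysis was possible because the 4 KO and 4 WT libraries share no replicate number. Genes called between genotypes stayed at 0 in all 21 edgeR alternatives (RLE scaling, no filter and a stricter filter on low counts, the 8 libraries alone, muscle and hepatocyte covariates, marker genes left out, each library left out, and 5 chosen after seeing the data), where 618 (with ENSMUSG00000119584 as a covariate) to 1420 genes (no filter) had an unadjusted p under 0.05. DESeq2 gave 20 and limma voom with quality weights 91. Calls for the interaction, 0 as fitted, were 21 with DESeq2, 1767 with limma voom, 2 without KO 2 and WT 1, 1 without the 4 muscle-rich libraries, and 0 to 3 when single libraries were left out (3 without KO 2, 1 without WT 24). The cause of these differences was not tested. Agt in liver kept its call in all alternatives, from -1.42 without KO 22 to -1.18 without WT 1. Of 63 genes examined, 59 kept their sign in all 23 alternatives, and the others were Agt, Dio2, Fasn and Ucp1. Many of the 63 were named for groups without overlap or a low p in these same libraries. Leaving out libraries can hardly turn the sign of such genes, so this count is no independent support for them. Agt in brown fat, 0.48 as fitted, was -1.19 with limma voom, -0.25 with the muscle covariate, -1.04 with the hepatocyte covariate, -0.85 with both, -0.99 without KO 2 and WT 1, -2.40 without the 4 muscle-rich libraries, and -0.99 to 0.89 when single libraries were left out. Ucp1 was 0.37 with limma voom, 0.57 without the 4 muscle-rich libraries, 0.16 without KO 3 and WT 24, and -0.44 to 0.38 when single libraries were left out. Fasn was -0.71 without KO 3 and KO 5, -0.75 with ENSMUSG00000119584 as a covariate, and -0.66 to 0.95 when single libraries were left out. Dio2 was 0.042 without the 4 muscle-rich libraries. Single libraries also moved Irf4 to 0.53 (without KO 4), Pnpla2 to 0.21 and Kcnk3 to 0.31 (without KO 5), Esrra to 0.29, Srebf1 to 0.27 and Filip1l to -0.20 (without KO 3), Filip1l to -0.64 (without KO 2), Fmod to -0.90 (without WT 7) and Alpl to 0.30 (without WT 24).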

Other observations

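The 91 genes called by limma voom with quality weights, which gave WT 24 a weight of 0.254 and WT 7 one of 2.75, included genes outside the lists above. They were chosen here after their values were seen. Lower in KO were the leukocyte genes Cybb (voom log2 change -0.84), Lcp1 (-0.97), Nckap1l (-1.04), P2ry6 (-1.36) and Tlr4 (-0.76), and the mesenchymal genes Prrx1 (-1.66), Sfrp1 (-1.08) and Slit3 (-1.02). Higher in KO were Ucp3 (1.63), a mitochondrial carrier related to Ucp1, Bcat2 (0.69), which starts the breakdown of branched-chain amino acids, and Acss1 (0.71), the mitochondrial acetyl-CoA synthetase. Ucp3 was at 78.8, 42.8, 40.6 and 163 CPM in WT 1, 6, 7 and 24, and at 98.6, 124, 154 and 225 CPM in KO 2, 3, 4 and 5, and in edgeR its change was 0.89 (adjusted p 0.897). The groups of Ucp3 overlapped through WT 24.

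A pair of interferon-induced nuclear body genes, Sp110 and Sp140, split the WT libraries. Sp110 had no count in WT 6 and WT 7 and was at 2.07 and 3.03 CPM in WT 1 and WT 24 and at 3.02 to 4.85 CPM in the KO libraries. Sp140 was at 0.0809 and 0.103 CPM in WT 6 and WT 7, at 3.25 and 2.19 CPM in WT 1 and WT 24, and at 2.36 to 2.79 CPM in KO. These genes belong to a family with near-identical copies, and how the authors' counting assigned their reads was not tested.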
